A study of Mus musculus with 4 samples.

Results

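The AP-1 transcription factor family was measured here as 10 mouse genes, Jun, Junb, Jund, Fos, Fosb, Fosl1, Fosl2, Atf3, Maff and Mafk. They were taken by symbol: every probe set that the platform annotation pairs with exactly 1 of these symbols was used, which gave 14 probe sets of 45037. All 10 genes were among the 13565 genes tested. The family was proposed with the difference between TGF-beta1 and low glucose in view, so that difference describes the 10 genes and is no test of them. RNA described as that of mouse glomerular mesangial cells, the contractile cells between the capillary loops of the kidney filter, was measured on 4 one-colour oligonucleotide arrays. TGF-beta1 arrays (2) carried RNA of mesangial cells given transforming growth factor beta 1, and low glucose arrays (2) carried RNA of mesangial cells kept in low glucose. The sources used here give no strain, donor age, passage, dose or time, and no glucose level for the TGF-beta1 cells, so TGF-beta1 and a difference in glucose cannot be told apart. Separate cultures behind the arrays of a group are not stated, and p-values therefore cover the spread of these arrays alone, and that spread may be technical.

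AP-1 is a dimer of basic leucine zipper proteins. Jun proteins pair with each other or with Fos proteins, Fos proteins need a Jun partner to bind DNA, and the dimers bind a short site in the control regions of genes for growth, matrix turnover and inflammation. Most of these genes are immediate-early or delayed-early genes that MAP kinases switch on within a short time of a stimulus. TGF-beta acts on them through SMAD proteins, which can bind beside AP-1, and through MAP kinases. In mesangial cells AP-1 is known for its part in the transcription of Tgfb1 itself and of matrix genes in high glucose.

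Values per array are the deposited intensities, on a linear scale. Differences are TGF-beta1 minus low glucose on a log2 scale, after adding a pseudocount of 46.9 and quantile normalisation, and they understate the change of dim probe sets. For these differences, the error after ± is the standard error of the limma fit without a block (n = 2 arrays per group). The arrays formed 2 pairs across the groups. Array pair 1 was TGF-beta1 replicate 2 and low glucose replicate 1, and array pair 2 was TGF-beta1 replicate 1 and low glucose replicate 2. The pairs were made from the 18 probe sets of control transcripts added at hybridisation, whose mean absolute log2 difference was 0.0535 within pair 1 and 0.0888 within pair 2, against at least 0.972 across them. Across genes the arrays correlated at r = 0.988 in pair 1 and 0.99 in pair 2, and at 0.955 within either group, where genes are not independent replicates. Each difference is therefore also given within each pair.

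All 10 genes were brighter on both TGF-beta1 arrays than on both low glucose arrays after normalisation. Atf3 (1.34), Fosl1 (1.26) and Jun (1.10) had the largest differences of the family and Jund (0.34), Mafk (0.44) and Fosb (0.44) the smallest, and the family's median was 0.81, with 0.85 within pair 1 and 0.78 within pair 2. Over all 13565 genes the median was -0.00, 9.83% of genes had both TGF-beta1 arrays above both low glucose arrays, and 20.9% had groups that did not overlap in either direction. With the array pair as a block, limma called all 10 higher at an adjusted p under 0.05, where 7.89% of all genes were called higher and 18.5% in either direction. Without the block, limma called 0 of the 10 (smallest adjusted p = 1) and 0% of all genes. At an unadjusted p under 0.05 that fit had 7 of the 10 and 271 of all genes. The blocked call has 1 residual degree of freedom beside a prior estimated as infinite, and with the prior of the other fit, 2.79 degrees of freedom, it called 0 of the 10. An exact permutation test over 2 arrays against 2 cannot give a two-sided p below 0.333. Because the family was chosen on this difference, none of these counts is evidence for it.

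**Figure D1:**
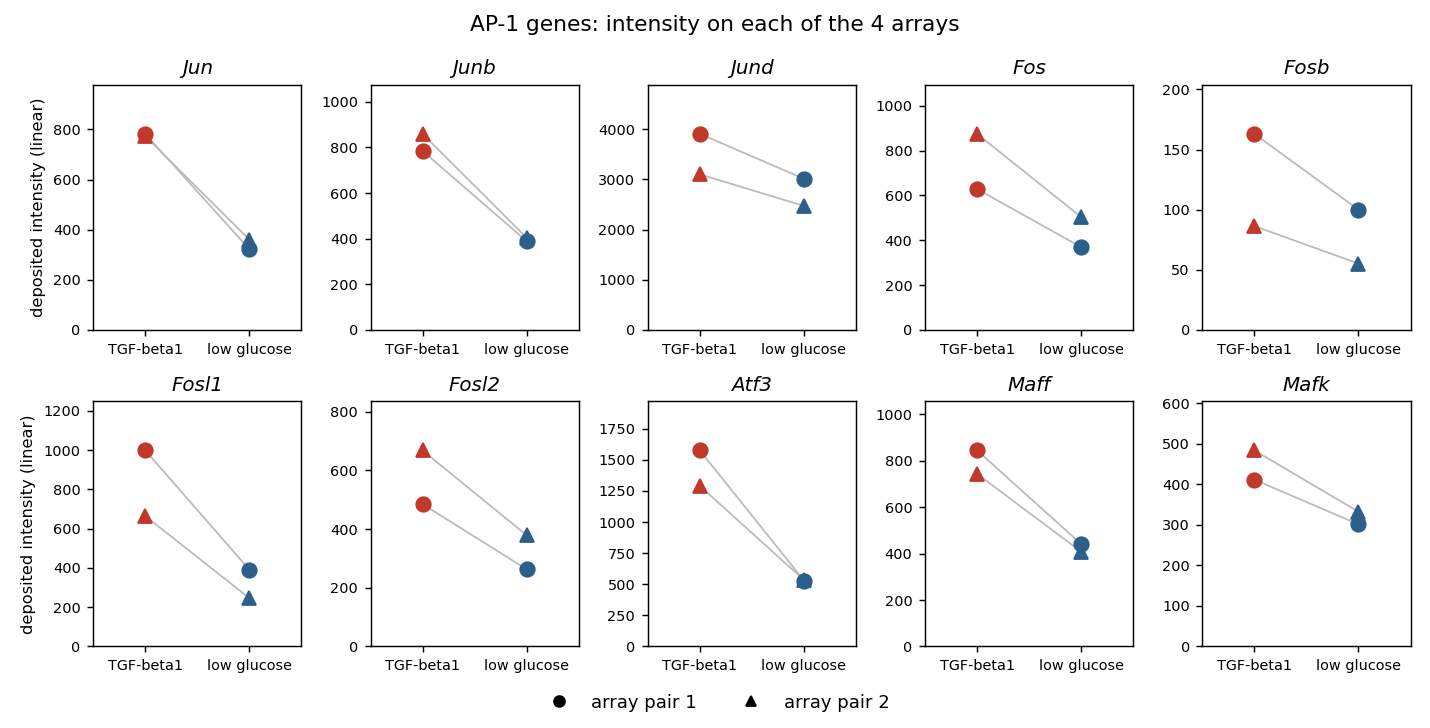
Deposited intensity (linear scale, y axis from 0) of the tested probe set of each AP-1 gene, with TGF-beta1 arrays (red) left of low glucose arrays (blue). Circles are array pair 1 and triangles array pair 2, and lines join the arrays of a pair. Every line falls towards low glucose. Atf3 read 1290 and 1575 in TGF-beta1 against 530 and 534 in low glucose, and Jund had the smallest ratio of means, 1.28.

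The Jun proteins are the subunits that every AP-1 dimer of the Jun and Fos families contains. Jun, the founding member and an immediate-early gene that its own product helps to switch on, lies on chromosome 4 (chr4:95049036-95052222 in GRCm38.p6). Its tested probe set, 1417409_at, read 773 and 782 on TGF-beta1 replicates 1 and 2, against 322 and 360 on low glucose replicates 1 and 2. The TGF-beta1 arrays lay well above the low glucose arrays and close to each other. The difference was 1.10 ± 0.163, at 1.19 within pair 1 and 1.02 within pair 2, which ranked 14 of 13565 genes. The other Jun probe set, 1448694_at, was dimmer, with 328 and 266 in TGF-beta1 against 128 and 168 in low glucose, and its difference was 0.83. Both probe sets thus showed about the same ratio of mean intensities, 2.28 and 2.01.

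Junb, which often restrains growth where Jun drives it and is a known direct SMAD target, lies on chromosome 8 (chr8:84976909-84978748). It read 859 and 784 in TGF-beta1 against 389 and 404 in low glucose. The groups were far apart and the arrays of each group close together. The difference was 0.98 ± 0.160, with 0.94 and 1.02 within pairs 1 and 2 (rank 24).

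Jund, the Jun protein that resting cells hold at a steady level, lies on chromosome 8 as well (chr8:70697739-70700616). Its tested probe set, 1449117_at, read 3101 and 3907 in TGF-beta1 against 3014 and 2472 in low glucose. The lower TGF-beta1 array lay just above the higher low glucose array. The difference was 0.34 ± 0.140, with 0.36 and 0.32 within the pairs (rank 323). Its second probe set, 1440265_at, was dim and did not separate the groups, at 83.5 and 92.3 in TGF-beta1 against 82.1 and 88.2 in low glucose, and differed by -0.00. Jund was thus the member with the smallest difference, and its probe sets disagreed. Without TGF-beta1 replicate 2 its difference was 0.22.

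The promoters of Jun and Junb are shown because both genes were higher together. They are RefSeq windows of 300 bases in GRCm38.p6, from 250 bases before to 50 after the annotated start, 5′ to 3′ on the gene's own strand. Capitals mark matches on either strand to a cAMP response element (CRE), TGACGTCA, to its core TGACG, or to TGACATCA, the variant known from the Jun promoter. The Jun window is chr4:95052173-95052472, minus strand, and the Junb window chr8:84978699-84978998, minus strand.
Jun: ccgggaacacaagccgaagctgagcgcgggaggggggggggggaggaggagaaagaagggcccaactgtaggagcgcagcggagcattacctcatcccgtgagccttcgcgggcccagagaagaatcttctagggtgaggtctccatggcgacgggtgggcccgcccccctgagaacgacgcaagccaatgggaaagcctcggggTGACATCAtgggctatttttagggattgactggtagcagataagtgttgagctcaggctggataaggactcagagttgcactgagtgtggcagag
Junb: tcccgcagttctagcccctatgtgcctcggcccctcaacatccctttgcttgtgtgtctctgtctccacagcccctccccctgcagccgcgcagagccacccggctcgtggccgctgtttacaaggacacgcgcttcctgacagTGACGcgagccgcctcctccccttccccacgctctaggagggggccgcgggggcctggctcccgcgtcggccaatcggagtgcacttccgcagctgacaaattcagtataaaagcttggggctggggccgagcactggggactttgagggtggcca
The Jun window held TGACATCA at positions -45 to -38 from the start, and the Junb window held the core at -106 to -102. These are matches of letters and say nothing of binding.

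The Fos proteins supply the partner that gives a Jun dimer its stability on DNA, and they differ in how strongly they activate transcription. Fos itself, the classical immediate-early gene, lies on chromosome 12 (chr12:85473890-85477274). It read 874 and 628 in TGF-beta1 against 369 and 503 in low glucose. The groups did not overlap, although the TGF-beta1 arrays stood far apart from each other. The difference was 0.73 ± 0.260, with 0.71 and 0.76 within the pairs (rank 72), and it was 0.49 without TGF-beta1 replicate 1. The pairs therefore differed more in the level of Fos than in the size of its difference.

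Fosb, whose product can be cut short by splicing into a form without an activation domain, lies on chromosome 7 (chr7:19302696-19310118) and was the dimmest tested member. It read 86.3 and 163 in TGF-beta1 against 100 and 55.2 in low glucose, near the array medians of 80.3 and 99.6 in TGF-beta1 and 96.7 and 78.2 in low glucose. The deposited values of the groups overlapped, and after normalisation the lower TGF-beta1 array stood just above the higher low glucose array, at 7.15 against 7.11 on the log2 scale. The difference was 0.44 ± 0.222, with 0.50 and 0.38 within the pairs. With 1 array left out it was 0.21 (TGF-beta1 replicate 2), 0.68 (TGF-beta1 replicate 1) or 0.27 (low glucose replicate 2). With a floor in place of the pseudocount it was 0.67.

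Fosl1 encodes Fra-1, a Fos protein without a strong activation domain that AP-1 itself induces. It lies on chromosome 19 (chr19:5447698-5455938). Its tested probe set, 1417487_at, read 664 and 998 in TGF-beta1 against 391 and 246 in low glucose. The groups were clearly apart, and within both groups the array of pair 1 was the brighter one. The difference was 1.26 ± 0.278 (rank 8) and was 1.26 within either pair. The second probe set, 1417488_at, read 298 and 424 in TGF-beta1 against 156 and 111 in low glucose, and its difference was 1.16. The 2 probe sets gave ratios of mean intensity of 2.61 and 2.70.

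Fosl2 encodes Fra-2, the other Fos-related antigen, and lies on chromosome 5 (chr5:32136472-32157840). Its tested probe set, 1437247_at, read 668 and 485 in TGF-beta1 against 263 and 379 in low glucose. Here too the groups did not overlap, and the array of pair 2 was the brighter one in both. The difference was 0.79 ± 0.271, with 0.82 and 0.75 within the pairs (rank 56). The second probe set, 1422931_at, read 150 and 208 in TGF-beta1 against 157 and 122 in low glucose, where the deposited values overlapped, and it differed by 0.27. The probe sets of Fosl2 also disagreed on the array pairs, since 1437247_at was higher in pair 2 than in pair 1 by 0.49 and 1422931_at differed by -0.15.

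The Fos promoter is shown for comparison with that of Jun. Its window is chr12:85473640-85473939, plus strand, with the same marking.
Fos: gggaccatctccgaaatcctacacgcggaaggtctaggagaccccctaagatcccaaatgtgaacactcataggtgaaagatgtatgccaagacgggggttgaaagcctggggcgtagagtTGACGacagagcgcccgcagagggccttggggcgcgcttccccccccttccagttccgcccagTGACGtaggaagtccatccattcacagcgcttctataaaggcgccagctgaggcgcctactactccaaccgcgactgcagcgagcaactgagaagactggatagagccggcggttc
It held the core at -129 to -125 and at -66 to -62.

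Atf3, a bZIP protein that stress and TGF-beta induce and that can bind SMAD3 and repress Id1 in human epithelial cells, lies on chromosome 1 (chr1:191170296-191183333). It read 1290 and 1575 in TGF-beta1 against 530 and 534 in low glucose. The low glucose arrays were nearly equal and far below both TGF-beta1 arrays. The difference was 1.34 ± 0.157 (rank 4 of 13565), with 1.48 within pair 1 and 1.20 within pair 2, and its ratio of mean intensities was 2.69, the highest of the 10 tested probe sets.

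Maff and Mafk are small Maf proteins, which have a leucine zipper but no activation domain and pair with NFE2-related proteins, with BACH proteins or with Fos. Maff lies on chromosome 15 (chr15:79346621-79359078). It read 743 and 844 in TGF-beta1 against 441 and 408 in low glucose, so the groups lay far apart. The difference was 0.84 ± 0.155, with 0.88 and 0.81 within the pairs (rank 44). Mafk lies on chromosome 5 (chr5:139791536-139802653) and read 483 and 411 in TGF-beta1 against 301 and 332 in low glucose. Its groups were separate by a smaller margin. The difference was 0.44 ± 0.185, with 0.42 and 0.47 within the pairs (rank 199).

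Promoters of Atf3 and Maff are shown as those of the largest difference and of the member with a full CRE. The Atf3 window is chr1:191183284-191183583, minus strand. Maff has 3 annotated starts, and the window of its second start is chr15:79347270-79347569, plus strand.
Atf3: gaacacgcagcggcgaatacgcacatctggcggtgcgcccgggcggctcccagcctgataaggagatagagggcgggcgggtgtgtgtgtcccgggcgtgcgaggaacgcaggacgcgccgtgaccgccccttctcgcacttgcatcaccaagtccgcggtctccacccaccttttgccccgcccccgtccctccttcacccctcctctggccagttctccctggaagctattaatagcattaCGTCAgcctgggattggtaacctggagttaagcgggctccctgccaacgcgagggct
Maff: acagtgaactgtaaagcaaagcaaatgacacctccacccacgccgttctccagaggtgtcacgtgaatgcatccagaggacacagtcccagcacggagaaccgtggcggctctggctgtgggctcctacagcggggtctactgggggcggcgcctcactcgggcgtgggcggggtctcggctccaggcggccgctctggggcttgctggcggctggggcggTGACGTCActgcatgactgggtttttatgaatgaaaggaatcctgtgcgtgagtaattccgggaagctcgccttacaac
The Atf3 window held the core, on the other strand, at -7 to -3. The Maff window held TGACGTCA at -29 to -22.

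RefSeq promoter windows were found for 9 of the 10 genes, and these made 11 windows with those of Maff. The CRE core TGACG was in 7 of the 11 windows, belonging to Junb, Fos, Fosb, Atf3, Maff and Mafk, and in 20.8% of all 32851 windows. The full CRE TGACGTCA, which contains the core on both strands, was in 1 of the 11 and in 1.79% of all windows. TGACATCA was in 2 of the 11, those of Jun and of the third start of Maff, and in 3.62% of all windows. The AP-1 site TGACTCA was in 0 of the 11 and in 5.2% of all windows, the SMAD palindrome GTCTAGAC in 0 and in 0.213%, and the CArG box, the site of serum response factor, in 0 and in 1.63%. All motifs were searched on both strands. The windows are short, and a missing match says only that these letters were not in them.

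**Figure D2:**
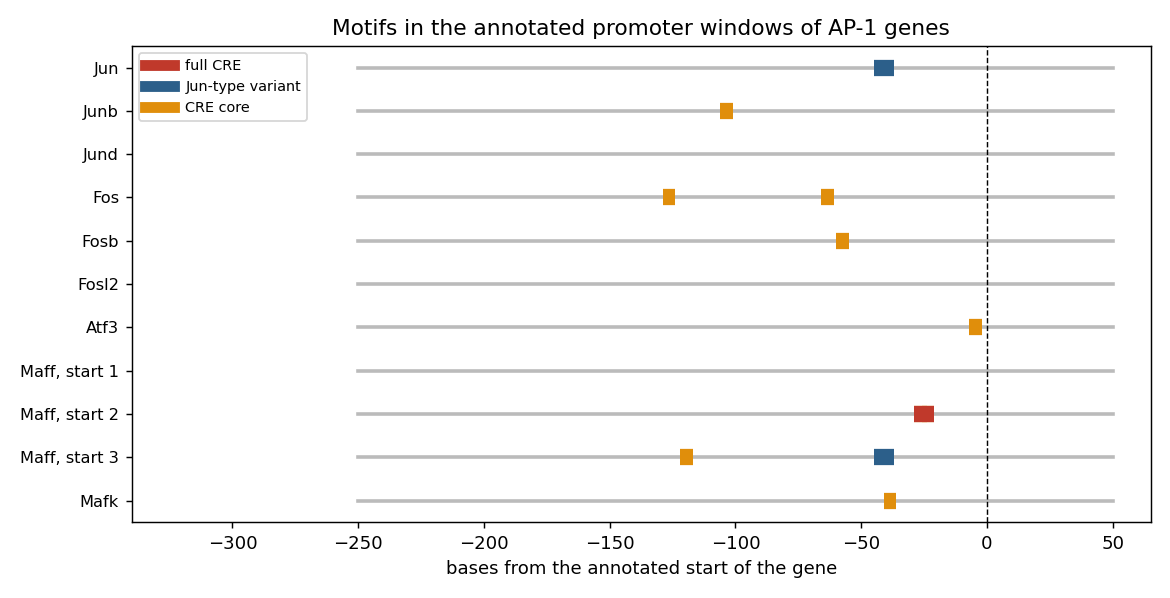
Matches to the full CRE (red), the variant of the Jun promoter (blue) and the CRE core (orange) in 11 promoter windows of AP-1 genes, by distance in bases from the annotated start (dashed line); grey lines are the windows. Matches in 7 of the 9 genes lay before the start, and the windows of Jund, of Fosl2 and of the first start of Maff held none.

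**Figure D3:**
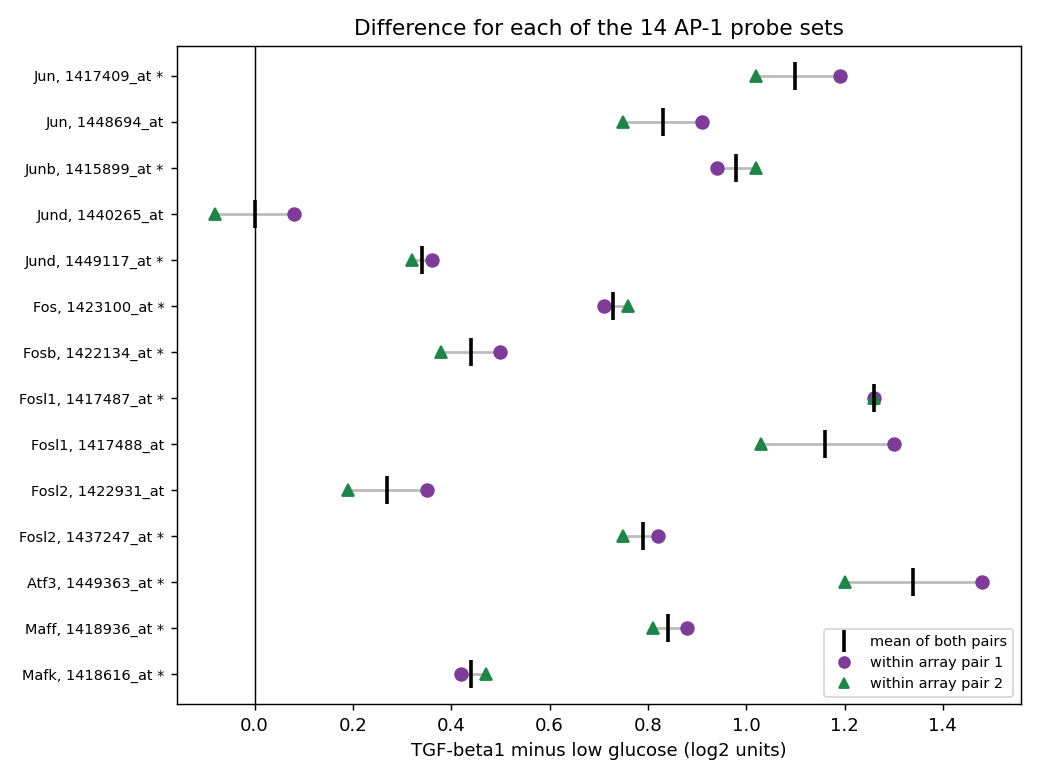
TGF-beta1 minus low glucose, in log2 units, for the 14 AP-1 probe sets (an asterisk marks the tested one of each gene), with bars for the mean of both pairs, circles for array pair 1 and triangles for array pair 2. Jund 1440265_at sits at 0 and every other probe set is above 0 within both pairs.

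Of the 14 probe sets, 13 had both TGF-beta1 arrays above both low glucose arrays after normalisation, and 11 did so in the deposited intensities. Over all 13565 tested genes, with 1 probe set each, 9.83% did so after normalisation. The share over all probe sets was not computed. Because the genes were chosen on this difference, these counts are no evidence for it. The exceptions in the deposited values were Fosb, Fosl2 1422931_at and Jund 1440265_at. All 14 passed the filter on dim probe sets, which is set on the mean of the 4 arrays, and 4 of them were not tested because a brighter probe set of the same gene was.

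The difference between the array pairs is separate from the one that brought these genes together, and it could be tested. With group as a term, limma called 6 of the 10 between the pairs at an adjusted p under 0.05, where 66.5% of all genes were called, so the share in the family was near that of all genes. Of these, 3 were higher in pair 2, as were 34.7% of all genes, and 3 were lower, as were 31.8%. On their tested probe sets, the Fos genes differed between the pairs in opposite directions. Here the error after ± is the standard error of the fit with group as a term, not of the fit without a block. Fos was higher in pair 2 than in pair 1 by 0.47 ± 0.081 (adjusted p = 3.14e-08 with limma), Fosl2 by 0.49 ± 0.077 (adjusted p = 1.4e-09) and Mafk by 0.21 ± 0.075 (adjusted p = 0.0102). Fosl1 was at -0.51 ± 0.080 (adjusted p = 7.06e-10), Fosb at -0.41 ± 0.071 (adjusted p = 2.83e-08) and Jund at -0.22 ± 0.062 (adjusted p = 0.000787), all lower in pair 2. Jun (0.11), Junb (0.13), Atf3 (-0.10) and Maff (-0.10) did not pass. These calls use a prior estimated as infinite, and with the finite prior 5 members were called and the call of Mafk was lost. With median centring in place of quantile normalisation 7 were called, where Jun and Junb passed and Jund did not. The second probe sets differed between the pairs by -0.28 for Fosl1, -0.15 for Fosl2, 0.19 for Jund and 0.39 for Jun. For Fosl2 and Jund the direction therefore depends on the probe set. Jun was among the genes with a called probe set when each probe set was tested on its own. Probe sets for the 3′ and 5′ ends of beta actin had a ratio of 1.32 and 1.51 on the arrays of pair 2 and of 1.18 and 1.18 on those of pair 1. The same ratio for Gapdh was not higher in pair 2, at 0.948 and 0.963 against 1 and 0.981 in pair 1. A probe set of 18S ribosomal RNA read 263 and 319 in pair 2 against 110 and 89.1 in pair 1. Their part in the difference between pairs was not tested.

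**Figure D4:**
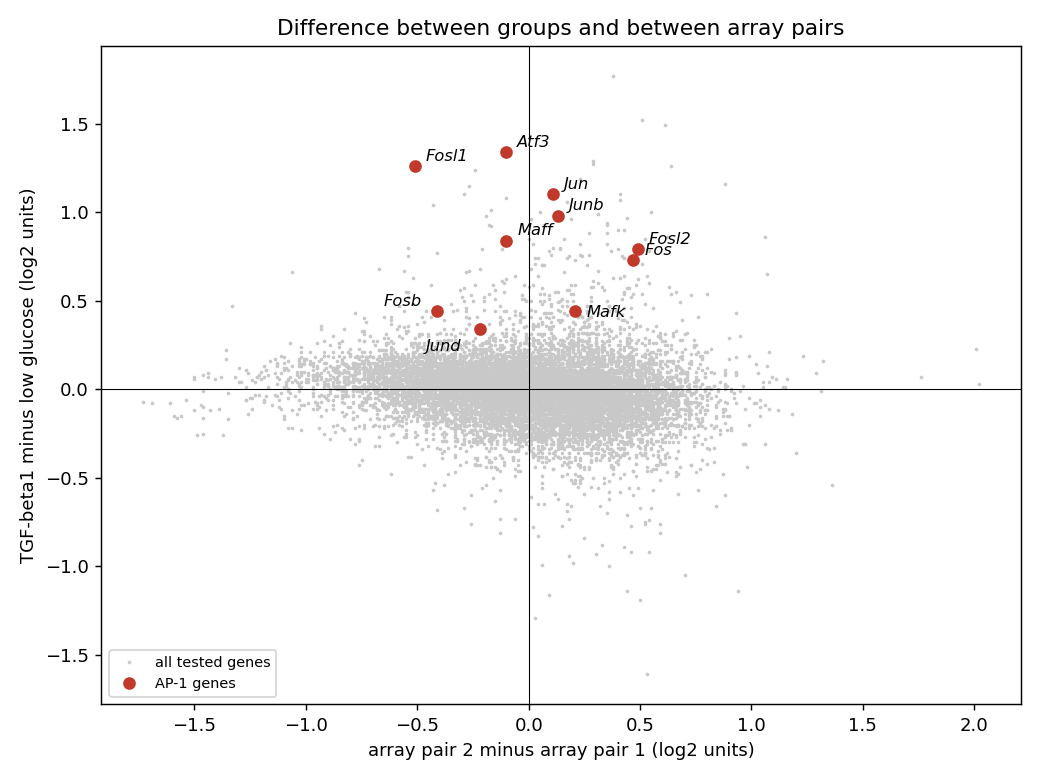
TGF-beta1 minus low glucose (y axis) against array pair 2 minus array pair 1 (x axis), both in log2 units, for 13565 genes (grey) and the 10 AP-1 genes (red). The 10 genes lie above 0 on the y axis, between 0.34 and 1.34, and on both sides of 0 on the x axis, between -0.51 and 0.49.

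For the genes around AP-1, a gene is said to have risen or fallen where limma with the array pair as a block gave an adjusted p under 0.05. That fit called 7.89% of all genes higher and 10.6% lower. No gene of any list passed without the block (smallest adjusted p = 1). Relatives within the bZIP class rose in part. Of 15 other AP-1 and bZIP genes tested, 7 rose, 1 fell (Batf2, at -0.20) and 7 missed the threshold. Their median was 0.12. Cebpd, a C/EBP factor of the acute response, rose by 0.78 ± 0.303, Cebpb by 0.47 ± 0.296 and Atf4, the effector of the integrated stress response, by 0.36 ± 0.109. Cebpd was at 0.43 without low glucose replicate 1, and its other probe set was at 0.26. The arrays of Cebpb overlapped between groups, and with 1 array left out it was at 0.14 (TGF-beta1 replicate 2), 0.79 (TGF-beta1 replicate 1), 0.21 (low glucose replicate 2) or 0.73 (low glucose replicate 1). Other probe sets of Atf4 were at 0.19 and 0.07. Jdp2, the Jun dimerisation protein, differed by 0.01, Atf2, a Jun partner, by -0.08, and Batf and Batf3, which pair with Jun proteins in lymphocytes, by 0.12 and 0.02, none past the threshold.

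Among 7 tested genes of the Maf family and its partners, 1 rose, 1 fell and 5 did not pass (median 0.06). Mafg, the third small Maf, rose by 0.37 ± 0.193 and its other probe set was at 0.26. Maf, a large Maf with an activation domain, fell by 0.28 ± 0.214 on its tested probe set, while its others ranged from -0.23 to 0.08. With 1 array left out, Mafg was at 0.22 (TGF-beta1 replicate 2) or 0.25 (low glucose replicate 2). Maf, whose groups overlapped, was at -0.14 (TGF-beta1 replicate 2), -0.42 (TGF-beta1 replicate 1), -0.12 (low glucose replicate 2) or -0.44 (low glucose replicate 1). Nfe2l2, the NRF2 partner of small Mafs, was at 0.03, and Bach1, a repressor that pairs with them, at 0.05, neither past the threshold.

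Upstream, 22 MAP kinases and kinases of their cascades were tested, of which 1 rose, 4 fell and 17 did not pass (median -0.04). Map2k6, which activates p38, fell by 0.43 ± 0.175, Rps6ka3, the kinase RSK2, by 0.28 ± 0.164 and Rps6ka5, the kinase MSK1, by 0.22 ± 0.294. Map2k6 was at -0.28 without low glucose replicate 2. Rps6ka5, whose groups overlapped, was at 0.02 (TGF-beta1 replicate 2), -0.46 (TGF-beta1 replicate 1), 0.13 (low glucose replicate 2) or -0.58 (low glucose replicate 1) with that array left out. Its TGF-beta1 mean, 6.78 on the log2 scale, lay below the limit of the filter on dim probe sets, 6.85. Other probe sets of Rps6ka3 were at 0.11 and -0.16. The Jun kinases Mapk8 and Mapk9 were at 0.05 and 0.14 without passing. Of 6 genes for serum response factor and its partners, 1 rose and 5 did not pass (median 0.05). It was Elk3, a ternary complex factor, at 0.78 ± 0.164, with 0.26, 0.25 and -0.10 on its other probe sets, while Srf was at 0.16 and Elk1 at 0.08. Of 7 genes of Jun and Fos turnover 0 passed (median 0.04), and the 3 with the largest differences were Csk at 0.13, Itch, an E3 ligase of Jun, at 0.12 and Cop1, another, at 0.06. Their order rests on single arrays. With TGF-beta1 replicate 2 left out Itch was at -0.05 and Cop1 at 0.19, and with TGF-beta1 replicate 1 left out they were at 0.28 and -0.07. With low glucose replicate 2 left out Itch was at 0.05, Cop1 at 0.22 and Csk at 0.01, and with low glucose replicate 1 left out they were at 0.19, -0.11 and 0.25.

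Downstream, 9 of 12 tested genes with known AP-1 sites in their control regions rose, 0 fell and 3 missed the threshold. Their median was 0.39. Hbegf, a ligand of the EGF receptor, rose by 1.15 ± 0.195, with 1.02 on its other probe set. Ptgs2, the inducible cyclooxygenase, rose by 0.90 ± 0.228 (0.94 on its other probe set) and Cd44, the hyaluronan receptor, by 0.75 ± 0.239, with 0.80, 0.63 and 0.06 on its others. The low glucose mean of Ptgs2, 6.82 on the log2 scale, lay below the limit of the filter on dim probe sets, 6.85. Ptgs2 was thus kept only through its TGF-beta1 arrays. Its other probe set, and the Cd44 probe set at 0.06, did not pass that filter. Plau, the urokinase gene, was at -0.04, Tgfb1 at 0.04 and Mmp10 at 0.01, without passing. Of 16 other immediate-early genes 13 rose, 0 fell and 3 missed the threshold. Their median was 0.68. Dusp1, which switches off MAP kinases, rose by 1.06 ± 0.147, Rhob, a small GTPase, by 0.96 ± 0.145 and Klf6, a zinc finger factor, by 0.88 ± 0.255. Klf6 was at 0.58 without low glucose replicate 1. Its other probe sets were at 0.79, 0.72, 0.96 and 0.14, the last of which did not pass the filter on dim probe sets. The 3 that did not pass were Egr3 (0.06), Gadd45b (0.06) and Klf2 (0.10). These lists were chosen with earlier results of these arrays known, so their counts are no independent evidence of a direction.

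**Figure D5:**
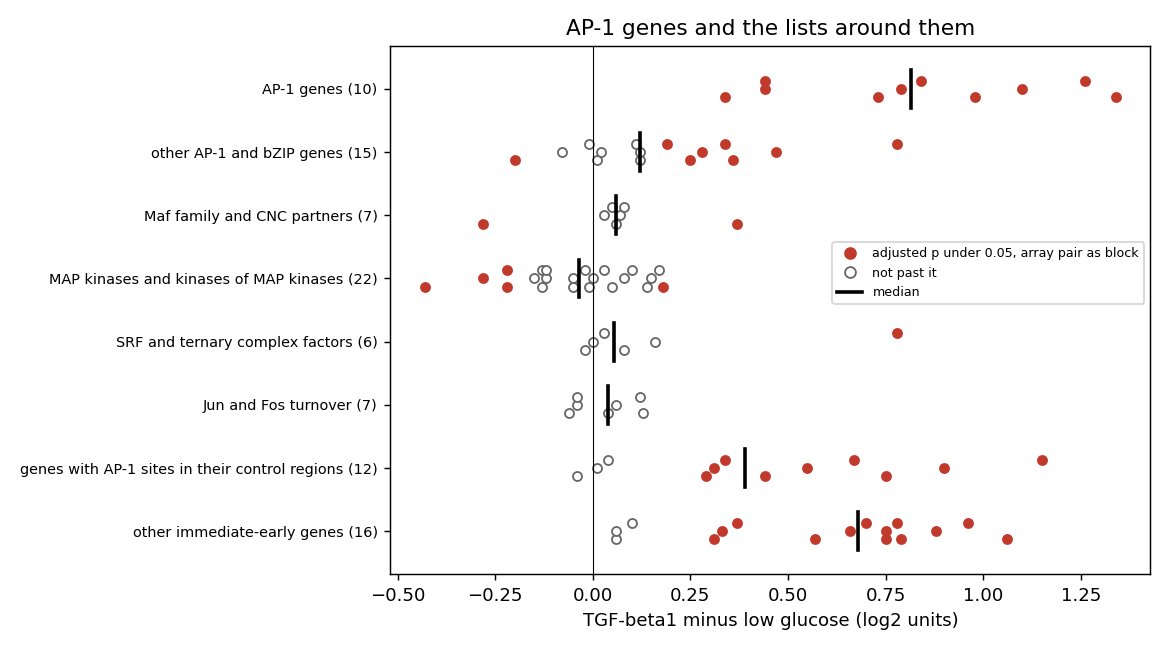
TGF-beta1 minus low glucose in log2 units for the AP-1 genes and the 7 lists around them (number of tested genes in brackets); each point is a gene, filled where its adjusted p was under 0.05 with the array pair as a block, and bars are medians. Medians were 0.81 for the AP-1 genes, 0.68 for other immediate-early genes, 0.39 for genes with AP-1 sites and between -0.04 and 0.12 for the other lists.

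By Euclidean distance of log2 values centred over the 4 arrays, the tested genes nearest to Jun outside the family were Dusp1 (distance 0.0769), Tm4sf1 (0.141) and Lcn2 (0.165). Those nearest to Junb were Pvr (0.0775), Tm4sf1 (0.0919) and Lamb3 (0.115). Those nearest to Atf3 were Dusp2 (0.2), Hbegf (0.248) and Cldn4 (0.284). The measure rests on 4 arrays only, and the neighbours shared the difference between groups and the small difference between pairs by construction.

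As a check of the labels, Pmepa1, which TGF-beta induces and which restrains SMADs, was higher by 1.29 ± 0.190, Skil, a SMAD co-repressor, by 0.64 ± 0.244 and Smad7, the inhibitory SMAD, by 0.50 ± 0.245. Skil was at 0.38 without low glucose replicate 1, and Smad7 was at 0.22 without it and 0.77 without low glucose replicate 2. Other probe sets were at 1.33 and 0.78 for Pmepa1, 0.61 for Skil and 0.41 for Smad7. Of 10 mesangial markers 7 were above the array median on all 4 arrays, among them Vim, Mcam, Nt5e and Acta2, while Itga8, Gata3 and Thy1 were not. Pdgfrb, at 87.2 and 118 in TGF-beta1 against 99.3 and 88.3 in low glucose, was little above it. So was Cspg4, at 88.7 and 119 in TGF-beta1 against 106 and 85 in low glucose. Of 7 renal tubule markers 4 were above the median on all 4 arrays, Cdh16 at 1682 and 1495 in TGF-beta1 against 2014 and 1919 in low glucose, Pax8, Lrp2 and Epcam. Podocyte markers had 2 of 4 above it, Nphs1 and Podxl, and endothelial and leukocyte markers 0 of 5 each. None of these markers was listed at 0. With the block, Acta2 (0.32), Mcam (0.34), Vim (0.29), Nt5e (0.20) and Podxl (0.23) rose, and Cdh16 (-0.31), Lrp2 (-0.29) and Synpo (-0.58), a podocyte marker, fell. The deposited values of Mcam, Nt5e and Podxl overlapped between the groups. Summed intensities were 6666 and 7780 in TGF-beta1 against 6399 and 5527 in low glucose for the mesangial list. Most of that was Vim, at 5298 and 6239 in TGF-beta1 against 5106 and 4346 in low glucose. For the tubule list the sums were 2999 and 3075 in TGF-beta1 against 3810 and 3332 in low glucose. For the podocyte list they were 545 and 778 in TGF-beta1 against 738 and 580 in low glucose, for the endothelial list 203 and 288 in TGF-beta1 against 277 and 219 in low glucose, and for the leukocyte list 350 and 412 in TGF-beta1 against 368 and 338 in low glucose. Their part in the AP-1 differences was not tested. In such bulk RNA, fewer cells of a type and less RNA per cell cannot be told apart.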

How the data were processed

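The authors deposited 1 intensity per probe set and array, on a linear scale. The sources used here do not give how probes were summarised or arrays scaled. No detection calls were used, and the number of arrays limits the precision. From the intensities, log2(intensity + 46.9) was computed, where 46.9 is the 25th percentile of the intensities, and all 45101 probe sets were quantile normalised. The 64 control probe sets were then left out, those whose mean log2 value reached the 40th percentile were kept (27022), and per gene the brightest probe set with 1 symbol was tested (13565 genes). Of 45037 probe sets, 34945 had 1 symbol, 932 several and 9160 none here.

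Tests were two-sided and used limma 3.58.1 in R 4.3.3 (lmFit, then eBayes with trend), and p-values were adjusted over all genes by Benjamini-Hochberg, called under 0.05. Figures were drawn in Python 3.11.15 and matplotlib 3.10.9. It was fitted without and with the array pair as a block, and for pair 2 against pair 1 with group as a term. The pairing comes from the control transcripts, found in an earlier look at these data, and the titles of the arrays of pair 1 carry the same repeat tag, while those of pair 2 do not. Replicate numbers are names and pair no arrays. The members and lists were chosen with earlier results of these data known. Genes outside the family were named by a rule on list membership and size, to which genes named as not passing were added after their values were seen. Alternatives were other pseudocounts, a floor, other scalings and filters, other choices of probe set, another prior, no trend, and leaving out each array. Promoter windows, genome positions and motif shares came from RefSeq tables in GRCm38.p6, where all 10 genes were found.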

Additional observations from a re-analysis of the deposited data

How the results depend on the processing

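All 10 AP-1 genes kept a positive difference under every alternative run, and the precision is limited by 2 arrays per group. Of 149 member values under alternatives, 6 moved by more than 1 SD between replicates and 0 changed sign: Jun at 1.01 with a pseudocount of 100, 1.21 with a floor and 0.97 over its probe sets, Jund at 0.17 over its probe sets, and Atf3 at 1.48 and 1.20 within the pairs. That SD was wider for Fos (0.331), Fosb (0.294), Fosl1 (0.362) and Fosl2 (0.344) than for the other members, so larger shifts of theirs were not counted. Fosb, for example, went from 0.44 to 0.67 with a floor and to 0.21 without TGF-beta1 replicate 2. Leaving out 1 array could not move a value past that SD, which is made from the same gaps between replicates. Nor could it change a sign, because the groups did not overlap. Member values tested under other filters, or without probe sets of shared suffix types, repeated the main ones. The low count of moved values was thus largely fixed in advance. The family's median, 0.81, was 0.86 with a pseudocount of 16, 0.74 with 100, 0.89 with a floor, 0.77 with median centring, 0.84 with a filter at the 60th percentile (Fosb left out), 0.79 over all probe sets, 0.85 and 0.78 within pairs 1 and 2, and between 0.75 and 0.99 without 1 array. With the array pair as a replicate block, 2503 genes, 10 members and 38 list genes were called, against 0 of each without it, and with the finite prior the blocked fit called 0 genes and 0 members. Tested each on its own, 23221 probe sets gave 4078 calls with the block and 15265 between pairs, against 2503 and 9015 genes, with 10 of the 14 member probe sets called between pairs, against 6 genes. That alternative tests more features by construction. Between pairs, a finite prior, added after the data were seen, called 5 members, without Mafk, and 6366 genes, and median centring called 7, with Jun and Junb and without Jund. Without 1 array, the fit without the block called between 0 and 9 genes, 0 and 2 members, and 0 and 1 list genes. The members were Atf3 and Fosl1 without low glucose replicate 1 and Atf3 without low glucose replicate 2. Those fits assume that the lone low glucose array varies like the TGF-beta1 arrays, they leave the array pairs unbalanced, and their calls on genes chosen for this difference support nothing.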
